A study of Mus musculus with 15 samples.

Results

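Notch target genes and Fringe modifiers were followed as 8 named genes out of the 53465 in the deposited table: the repressors *Hey1*, *Hey2*, *Heyl* and *Hes1*, the feedback inhibitor *Nrarp*, and the Fringe enzymes *Lfng*, *Mfng* and *Rfng*. They were found by gene name, and each matched 1 gene. All 8 passed the filter on low values, which required an average of 5 or more normalized counts. The RNA came from cells sorted as GFP+, CD34+ and negative for lineage markers, a gate meant to leave out tumor cells and leukocytes. They came out of tumors made by injecting B16-F0, a melanoma cell line of the mouse. The study's results call the delivery of these cells intradermal, and its methods call it subcutaneous, on each flank. The hosts were CAG-GFP mice, whose promoter drives GFP in all tissues, so GFP marked cells of the host and not of the endothelium alone. Tumors were taken at day 15, and the labels name no treatment. The 3 populations were endovascular progenitors (EVP, low for CD31 and VEGFR2), transit amplifying cells (TA, intermediate for CD31 and low for VEGFR2) and definitive differentiated cells (D, high for both), with 5 libraries each. Mice of both sexes, 8 to 14 weeks old, were used, and no strain background is named for the CAG-GFP line. The labels number the replicates but do not say that they came from separate animals, so p-values measure the spread between these libraries.

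Notch is a receptor on the cell surface that is activated by a ligand on a neighboring cell. Binding leads to cleavage of the receptor, and its intracellular part moves to the nucleus, where it joins the DNA-binding protein RBPJ and turns on target genes. The *Hes* and *Hey* genes are the classical targets and encode basic helix-loop-helix repressors. *Nrarp* is a target whose small ankyrin repeat protein dampens the signal that induced it. Fringe enzymes work earlier in the pathway, in the Golgi, where they extend the O-fucose sugars of the receptor and so change which ligands it responds to. In blood vessels the pathway is known for arterial identity and for the choice between tip and stalk cells, and in pericytes and smooth muscle for the signal carried by NOTCH3.

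RBPJ binds a short motif whose core is TGGGAA, so the start sites of the genes were searched for it. RefSeq promoter entries of GRCm38.p6 were at hand for 4 of the 8 genes (*Hey2*, *Nrarp*, *Lfng* and *Rfng*), and the 4 sequences are shown to let the 2 targets and 2 Fringe genes be compared. Each runs 5′ to 3′ on the strand of the gene from 250 bases before the RefSeq start of transcription to 20 bases after it, with TGGGAA or its reverse complement TTCCCA in capitals.
Hey2: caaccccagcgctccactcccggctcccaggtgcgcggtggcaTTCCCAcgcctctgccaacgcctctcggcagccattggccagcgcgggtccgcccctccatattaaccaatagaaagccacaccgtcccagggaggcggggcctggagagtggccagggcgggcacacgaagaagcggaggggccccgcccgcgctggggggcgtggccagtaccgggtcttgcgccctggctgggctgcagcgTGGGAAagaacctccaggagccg
Nrarp: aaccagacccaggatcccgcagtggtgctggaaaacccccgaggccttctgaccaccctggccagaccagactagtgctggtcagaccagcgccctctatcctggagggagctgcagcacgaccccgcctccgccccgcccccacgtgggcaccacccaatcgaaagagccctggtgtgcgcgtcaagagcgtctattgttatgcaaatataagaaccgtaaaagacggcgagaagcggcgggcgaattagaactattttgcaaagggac
Lfng: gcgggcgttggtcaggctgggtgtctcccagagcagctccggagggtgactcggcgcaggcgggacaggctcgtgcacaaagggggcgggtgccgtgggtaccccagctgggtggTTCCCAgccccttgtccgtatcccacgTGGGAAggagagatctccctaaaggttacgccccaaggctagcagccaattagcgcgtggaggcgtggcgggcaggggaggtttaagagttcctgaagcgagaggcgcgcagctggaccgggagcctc
Rfng: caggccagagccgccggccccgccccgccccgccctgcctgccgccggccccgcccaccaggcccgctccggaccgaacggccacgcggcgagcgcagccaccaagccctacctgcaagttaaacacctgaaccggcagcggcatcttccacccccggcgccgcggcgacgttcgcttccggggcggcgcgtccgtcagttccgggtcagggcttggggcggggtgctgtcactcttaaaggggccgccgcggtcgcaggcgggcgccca
The windows lie at chr10:30842764-30843033 on the minus strand for *Hey2*, chr2:25180508-25180777 on the plus strand for *Nrarp*, chr5:140607091-140607360 on the plus strand for *Lfng* and chr11:120784185-120784454 on the minus strand for *Rfng*. *Hey2* and *Lfng* each held 2 matches to the core, those of *Hey2* beginning at -207 and -3 and those of *Lfng* at -135 and -108 from the start. *Nrarp* and *Rfng* held none in these windows, while 23.1% of 32851 windows of the same length held at least 1 match on either strand. The longer GTGGGAA was present at both sites of *Hey2* and at the second of *Lfng*, and in 5.75% of all windows. CACGTG, an E box of the kind that helix-loop-helix proteins bind, stood at -108 in *Nrarp* and at -112 in *Lfng*, where it overlapped the RBPJ core, and in 6.57% of windows. CACNAG, the N box bound by Hes proteins, was found 2 times in *Nrarp*, 1 time in *Lfng* and 1 time in *Rfng*, and in 39.0% of windows. These are matches of letters and not measured binding.

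Values are deposited normalized counts, which are reads per gene divided by 1 size factor per library. Each library had between 5394356 and 26513073 reads on genes (median 19049194), and 3 reads, taken as the limit of detection, equalled 1.81 to 10.5 normalized counts. Without molecular identifiers, such limits describe counting error alone. EVP replicate 1 stood apart: its olfactory receptor genes, used as a measure of background because these cells should lack them, averaged 40.1 normalized counts per kb of exon, beside 9.09 in TA replicate 1, 6.61 in D replicate 1, 3.70 in TA replicate 3 and at most 1.45 elsewhere. Its values for *Hey1*, *Hey2*, *Heyl*, *Nrarp*, *Lfng* and *Mfng* lay under that background, and well under it. For the exon length of each gene it came to 131 for *Hey1* (3.51 held), 104 for *Nrarp* (3.51), 101 for *Lfng* (0) and 205 for *Heyl* (63.2). The olfactory level therefore overstates the background of these genes in that library, and subtracting it sets their values there to 0. The labels were also set against cell type markers. Summed over 10 endothelial markers, EVP libraries held 2385 to 4279 normalized counts, TA libraries 5979 to 72865 and D libraries 103119 to 163172, while 8 fibroblast markers summed to 840558 or more in each EVP library, to 190986 to 606223 in TA and to at most 4065 in D. Among the endothelial markers in EVP, *Pecam1*, which encodes CD31, ranged from 119 to 613 and *Cdh5*, which encodes VE-cadherin, from 18.3 to 183. *Tek* alone held 2193 of the sum of 2594 in EVP replicate 2, but 585 of 4279 in replicate 5. It was not called between EVP and D (limma adjusted p = 0.322). *Erg* was at 0 in EVP replicate 3, and in EVP replicate 2 *Cldn5* was at 1.31 and *Tie1* at 3.92. Endothelial markers other than *Tek* were thus low in EVP beside D, and some were at the limit of detection in single libraries. In bulk RNA, fewer cells of a type and less RNA per cell cannot be told apart, which holds for every difference below.

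*Nrarp*, the feedback inhibitor, was called in all 3 comparisons (ENSMUSG00000078202, chr2:25180758-25183339, plus strand, protein coding, GRCm38). EVP replicates 1 to 5 held 3.51, 0, 4.09, 3.20 and 5.53 normalized counts, which are 0 to 8 reads per library. TA replicates held 93.1, 110, 37.9, 176 and 24.3, and D replicates 189, 477, 415, 330 and 164. Every EVP library lay below every TA library and every D library, and between TA and D only TA replicate 4 reached into the D range. The means were 3.27 ± 2.03 in EVP, 88.3 ± 61.0 in TA and 315 ± 137 in D (SD, n = 5). *Nrarp* was thus 96.5-fold higher in D than in EVP (log2 fold change EVP over D -6.32, SE 0.62, limma adjusted p = 8.2e-07) and 27.0-fold higher in TA than in EVP (-4.29, SE 0.62, limma adjusted p = 0.0019). The step from TA to D was 3.57-fold (-2.03, SE 0.62, limma adjusted p = 0.040), and this call was lost in 10 of 28 alternatives, 5 of which left out 1 library (TA replicates 3 and 5, D replicates 2, 3 and 4), with adjusted p up to 0.114. An antisense gene, *Gm38287*, shares 2051 bases of exon with *Nrarp*, and the library kit does not mark strand, so reads of both cannot be told apart. How the counting treated such reads is not given in the sources used here, so the level of *Nrarp* is uncertain.

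*Hey1* (ENSMUSG00000040289, chr3:8663359-8667256, minus strand) rose along the same order. In EVP it held 3.51, 108, 41.7, 62.3 and 272 normalized counts, in TA 472, 180, 734, 352 and 377, and in D 803, 2053, 2013, 1635 and 1213. No D library overlapped an EVP or a TA library, whereas EVP replicate 5 lay within the TA range. Means were 97.5 ± 104, 423 ± 203 and 1543 ± 535. The difference between EVP and D was 15.8-fold (log2 fold change -4.82, SE 0.75, limma adjusted p = 1.2e-04), and 28.6-fold without EVP replicate 5. Between EVP and TA it was 4.34-fold (-2.90, SE 0.75, limma adjusted p = 0.042), a call lost in 18 of 28 alternatives, among them leaving out any 1 of 11 libraries (EVP replicates 2 to 4, TA replicates 1, 3, 4 and 5, and D replicates 2 to 5). The 3.65-fold difference between TA and D did not pass (-1.92, SE 0.75, limma adjusted p = 0.117), although the libraries did not overlap. It passed without EVP replicate 1 (limma adjusted p = 0.0098).

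*Hes1* (ENSMUSG00000022528, chr16:30064384-30067796, plus strand), a target found in many tissues, was abundant in all 3 populations and changed least among the genes called between EVP and D. EVP libraries held 923, 2319, 1903, 2700 and 1518 normalized counts, TA libraries 3035, 3944, 1650, 2798 and 1547, and D libraries 4386, 4873, 4676, 4574 and 5408. All D libraries lay above all others, in a narrow range, and EVP and TA overlapped. The mean in D, 4783 ± 391, was 2.55-fold that in EVP, 1873 ± 691 (log2 fold change -1.44, SE 0.28, limma adjusted p = 0.0010). Against TA, 2595 ± 1006, it was 1.84-fold higher (-0.97, SE 0.28, limma adjusted p = 0.029), with the call lost in 10 of 28 alternatives (without any 1 of TA replicates 3 and 5 and D replicates 2 to 5, with no minimum mean, after quantile normalization, with edgeR and after background subtraction, with adjusted p up to 0.0810). Between EVP and TA the log2 fold change was -0.47 (95% interval -1.06 to 0.12, limma adjusted p = 0.484).

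*Heyl* (ENSMUSG00000032744, chr4:123233556-123249875, plus strand), known as a target in vascular smooth muscle, ran the other way. Its values were 63.2, 314, 148, 570 and 934 normalized counts in EVP, 259, 585, 143, 587 and 2663 in TA, and 32.9, 66.9, 0, 49.6 and 76.8 in D. Every TA library lay above every D library, and EVP replicate 1 alone of the EVP libraries reached into the D range. *Heyl* was 18.7-fold higher in TA, 847 ± 1034, than in D, 45.2 ± 30.3 (log2 fold change 4.37, SE 1.07, limma adjusted p = 0.011). TA replicate 5 carried much of the TA mean, and without it the fold was 8.69. In EVP, with 406 ± 353, it was 8.97-fold higher than in D (3.49, SE 1.07, limma adjusted p = 0.029), and this call was lost without any 1 of D replicate 3, the library at 0, and EVP replicates 2, 4 and 5 (adjusted p up to 0.0794). Both calls were also lost after quantile normalization and after background subtraction. EVP and TA did not differ beyond their spread (-0.88, 95% interval -3.15 to 1.39, limma adjusted p = 0.846).

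Markers of mural cells, the pericytes and smooth muscle of the vessel wall, went with *Heyl* between TA and D but were divided between EVP and D. Of 10 mural markers, 6 were higher in TA than in D and none was lower. Between EVP and D 4 were higher in EVP and 2 in D, *Kcnj8* by 7.22-fold and *Abcc9* by 8.34-fold. Their summed level was 7449 to 34637 normalized counts in EVP (median 8782), 6231 to 157242 in TA (median 38932) and 5227 to 10913 in D (median 10304). The median sum was thus lower in EVP than in D, while the highest sum was higher in EVP. *Kcnj8* and *Abcc9* weighed on the sum in D, with means of 2845 and 2216 there beside 394 and 266 in EVP. Every other mural marker had a higher mean in EVP than in D, as *Heyl* did, though not all were called. TA replicate 5, with the highest *Heyl*, also had the highest *Rgs5* (85852), *Cspg4* (2944), *Pdgfrb* (10618) and *Notch3* (1939) of all libraries, together with the lowest *Pecam1* (372), *Cdh5* (138), *Mfng* and *Nrarp* of the TA libraries. Within D the markers did not move as one: replicate 3, where *Heyl* had no read, had the lowest *Cspg4* (0.782), *Rgs5* (994) and *Notch3* (7.82) but the highest *Kcnj8* (5519) and *Abcc9* (3006) of the D libraries, and *Pdgfrb* was lowest in replicate 2 (6.53). The part of mural cells in the *Heyl* result was not tested.

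*Hey2* (ENSMUSG00000019789, chr10:30832359-30842801, minus strand), a partner of *Hey1* in arterial development, was the lowest of the repressors per length of transcript. It held 49.2, 11.8, 13.9, 7.19 and 19.4 normalized counts in EVP, 41.4, 1.76, 133, 43.9 and 72.2 in TA, and 19.2, 6.53, 0.782, 4.51 and 25.4 in D. The populations overlapped, TA replicate 2 and D replicate 3 were under 3 reads, and 5 libraries lay at or under the olfactory background. Means of 20.3 ± 16.7, 58.4 ± 48.6 and 11.3 ± 10.5 gave log2 fold changes of 1.07 for EVP over D (95% interval -1.0 to 3.13, limma adjusted p = 0.587), -1.0 for EVP over TA (-3.07 to 1.06, limma adjusted p = 0.768) and 2.07 for TA over D (0.0030 to 4.14, limma adjusted p = 0.212). None passed over all genes tested. Without TA replicate 2 the difference between TA and D passed (2.98, limma adjusted p = 0.023).

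**Figure D1:**
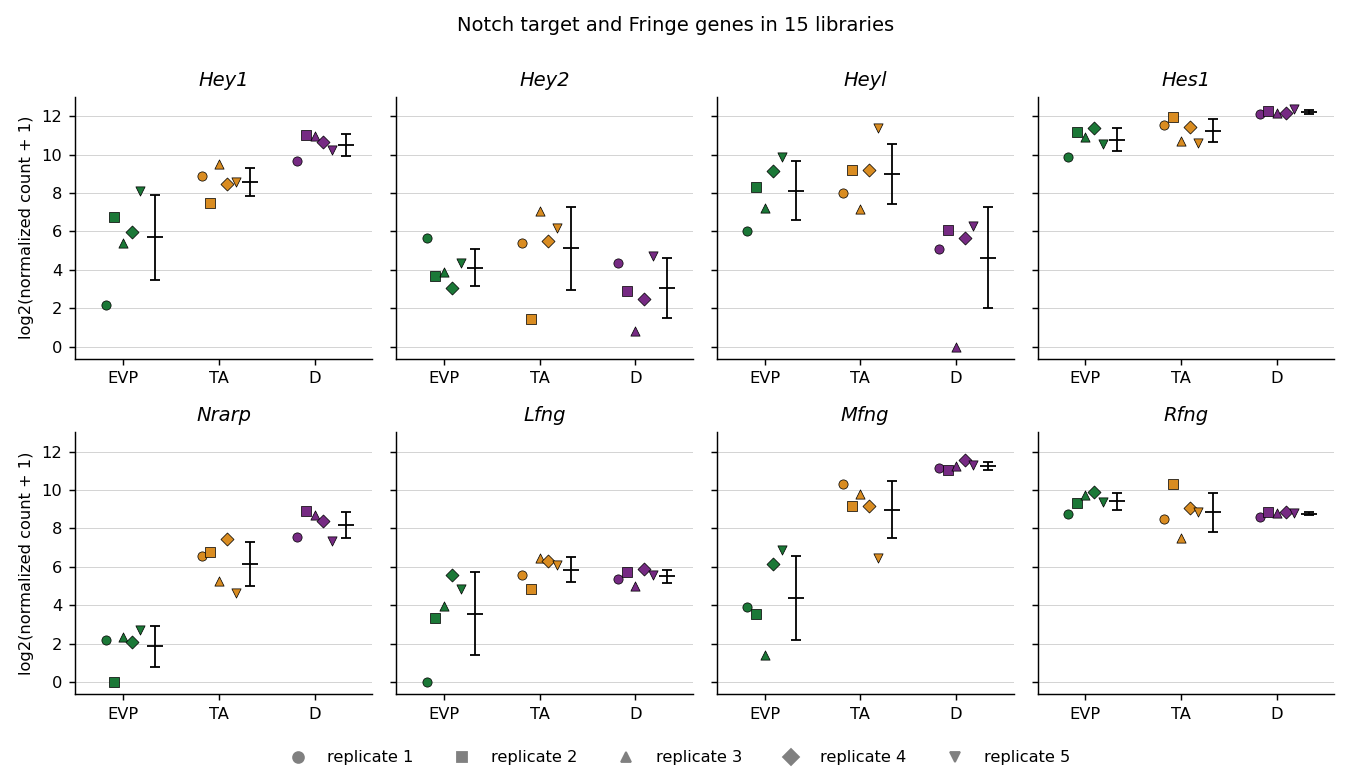
Each panel plots 1 gene, with log2(normalized count + 1) on the vertical axis and 1 symbol per library, its shape giving the replicate number. Black bars are the mean and SD of 5 libraries. *Nrarp*, *Hey1*, *Hes1* and *Mfng* were highest in D, *Heyl* was lowest there, and *Rfng* spanned only 390 to 458 normalized counts in D.

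The 3 Fringe genes behaved differently from one another. *Mfng* (ENSMUSG00000018169, chr15:78755882-78773475, minus strand) differed more between EVP and D on the log2 scale of the fit than any other of the 8 genes. EVP libraries held 14.04, 10.5, 1.64, 71.1 and 115 normalized counts, TA libraries 1286, 574, 890, 575 and 85.9, and D libraries 2232, 2092, 2472, 3002 and 2527. D lay above all other libraries without overlap, and of the TA libraries only replicate 5 fell within the EVP range. The mean was 2465 ± 348 in D, 682 ± 443 in TA and 42.4 ± 48.9 in EVP, a difference between EVP and D of 58.1-fold (log2 fold change -6.89, SE 0.84, limma adjusted p = 8.3e-06). Between EVP and TA it was 16.1-fold (-4.61, SE 0.84, limma adjusted p = 0.0059), and without EVP replicate 5 these folds were 101 and 28.1. The 3.61-fold step from TA to D did not pass (-2.28, SE 0.84, limma adjusted p = 0.0909), although it did when only TA and D were fitted (adjusted p = 0.018).

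*Rfng* (ENSMUSG00000025158, chr11:120780746-120784207, minus strand) was read in every library. It held 435, 635, 870, 941 and 664 normalized counts in EVP, 353, 1257, 181, 537 and 455 in TA, and 390, 455, 439, 458 and 443 in D. The D libraries were nearly equal, and the TA libraries spread both above and below them. Means were 709 ± 202, 557 ± 414 and 437 ± 27.5, and the log2 fold changes were 0.65 for EVP over D (95% interval -0.13 to 1.43, limma adjusted p = 0.292), 0.59 for EVP over TA (-0.19 to 1.37, limma adjusted p = 0.520) and 0.06 for TA over D (-0.72 to 0.84, limma adjusted p = 0.952). None passed, but the difference between EVP and D did with array weights (0.80, limma adjusted p = 0.0060) and with only these populations fitted (limma adjusted p = 0.040).

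*Lfng* (ENSMUSG00000029570, chr5:140607320-140615545, plus strand), whose protein is the Fringe best known from the segmentation clock, was low everywhere. EVP libraries held 0, 9.14, 14.7, 47.2 and 27.7 normalized counts, TA libraries 46.5, 28.1, 88.2, 76.8 and 67.3, and D libraries 39.8, 52.2, 30.5, 57.8 and 47.1. TA and D overlapped, and of the EVP libraries only replicate 4 was not below both. With means of 19.7 ± 18.3, 61.4 ± 24.1 and 45.5 ± 10.7, the log2 fold changes were -1.96 for EVP over D (95% interval -3.63 to -0.28, limma adjusted p = 0.105), -2.31 for EVP over TA (-3.98 to -0.64, limma adjusted p = 0.135) and 0.35 for TA over D (-1.32 to 2.02, limma adjusted p = 0.861). None passed over all genes tested, and without EVP replicate 4 the difference between EVP and D did (limma adjusted p = 0.041).

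Because the 3 enzymes act on the same substrate, their levels were set against each other per kb of exon. *Rfng* made up 83.8 to 98.2% of the Fringe total in EVP, 17.2 to 76.2% in TA and 14.6 to 19.4% in D. *Mfng* made up 0.16 to 12.7% in EVP, 12.6 to 74.4% in TA and 78.4 to 83.6% in D, and *Lfng* at most 11.2% in any library. *Rfng* was therefore the main Fringe transcript in every EVP library and *Mfng* in every D library, and the TA libraries fell on both sides. Among the *Hey* genes, whose leading members *Heyl* and *Hey1* were called in opposite directions between EVP and D, the shares changed as well. *Heyl* was 51.2 to 84.4% of the *Hey* total in EVP and 0 to 3.83% in D, and *Hey1* 4.46 to 34.2% in EVP and 94.8 to 99.97% in D. In TA, *Hey1* ranged from 17.7 to 79.8%, lowest in replicate 5 and highest in replicate 3. In EVP replicate 1, *Hey2* took 44.3% of the total, with all 3 *Hey* genes at or under the olfactory background of that library.

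**Figure D2:**
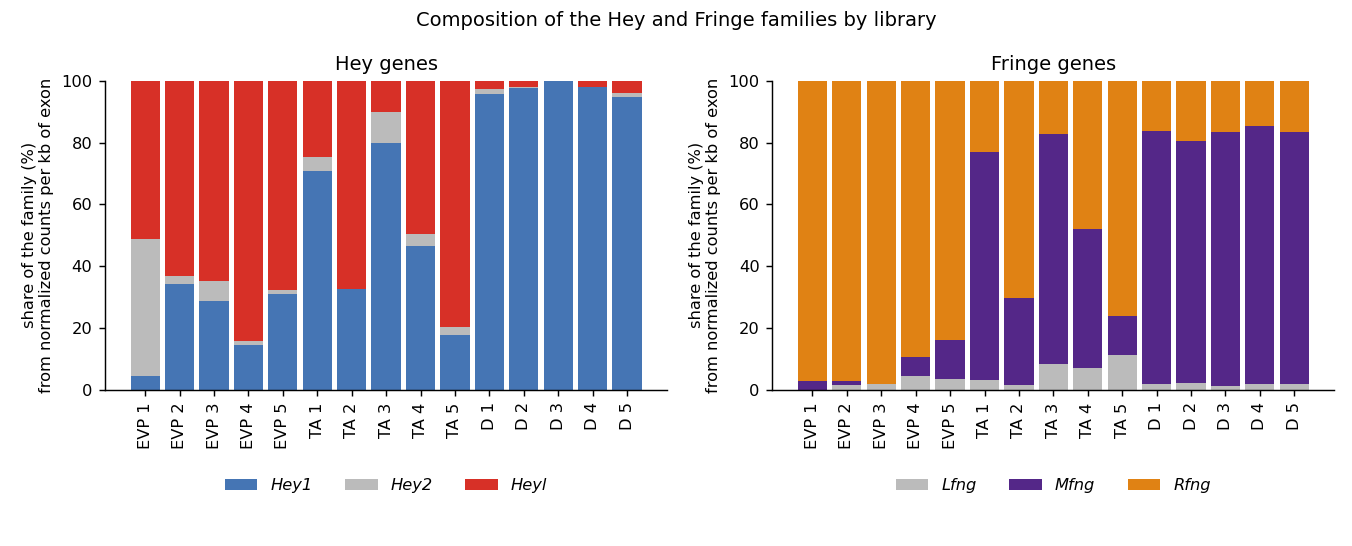
Bars give, for each library, the share in percent of each *Hey* gene (left) and each Fringe gene (right) in the family total of normalized counts per kb of exon. *Heyl* and *Rfng* fill most of every EVP bar and *Hey1* and *Mfng* most of every D bar, while TA bars vary between libraries.

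Per kb, *Hes1* was the most abundant of the 8 genes in every population, at 919 ± 339 normalized counts per kb in EVP, 1274 ± 494 in TA and 2348 ± 192 in D, above the next gene in all libraries. In D it was followed by *Mfng* (868 ± 123), *Hey1* (473 ± 164), *Rfng* (176 ± 11.0), *Nrarp* (122 ± 53.0), *Lfng* (18.2 ± 4.27), *Heyl* (8.85 ± 5.93) and *Hey2* (2.46 ± 2.29). *Rfng* and *Nrarp* overlapped there, as did *Lfng* and *Heyl*, and *Heyl* and *Hey2*, while the other neighbors did not. In EVP the second place went to *Rfng* (285 ± 81.0), followed by *Heyl* (79.4 ± 69.0), *Hey1* (29.9 ± 32.0), *Mfng* (14.9 ± 17.2), *Lfng* (7.88 ± 7.31), *Hey2* (4.41 ± 3.64) and *Nrarp* (1.26 ± 0.788). From *Rfng* down, each gene in EVP overlapped the next. In TA, *Mfng* (240 ± 156), *Rfng* (224 ± 166), *Heyl* (166 ± 202) and *Hey1* (130 ± 62.3) overlapped each other. Lower by their means were *Nrarp* (34.2 ± 23.6), *Lfng* (24.5 ± 9.60) and *Hey2* (12.7 ± 10.6). From *Mfng* down, each gene in TA overlapped the next, *Hey1* and *Nrarp* included. The place of *Nrarp* rests on reads in exon shared with *Gm38287* and is uncertain.

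Of the 8 genes, 5 were called between EVP and D, 4 higher in D (*Nrarp*, *Mfng*, *Hey1* and *Hes1*) and 1 higher in EVP (*Heyl*). Of all 25549 genes tested, 19.0% were called, 7.46% higher in D and 11.6% higher in EVP. Libraries did not overlap for 4 of the 8, beside 17.7% of all genes. Between EVP and TA, 3 were called, all higher in TA (*Nrarp*, *Mfng* and *Hey1*), beside 3.50% of all genes, 1.94% higher in TA and 1.56% higher in EVP. Only *Nrarp* did not overlap there, beside 4.29% of all genes. Between TA and D, 3 were called, *Hes1* and *Nrarp* higher in D and *Heyl* higher in TA, beside 12.5% of all genes, 4.31% higher in D and 8.21% higher in TA. Of the 8, 4 did not overlap (*Hey1*, *Hes1*, *Mfng* and *Heyl*), beside 9.25% of all genes. The median log2 fold change of the 8 was -1.70 for EVP over D, -1.66 for EVP over TA and -0.45 for TA over D, beside 0.46, 0.09 and 0.24 over all genes tested. The 3 comparisons share libraries and are not independent of each other. Of the 5 genes called between EVP and D, the mean of TA on the log2 scale lay 0.68 of the way from EVP to D for *Nrarp*, 0.67 for *Mfng*, 0.60 for *Hey1* and 0.33 for *Hes1*. For *Heyl* it lay outside that range, on the side of EVP (-0.25).

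**Figure D3:**
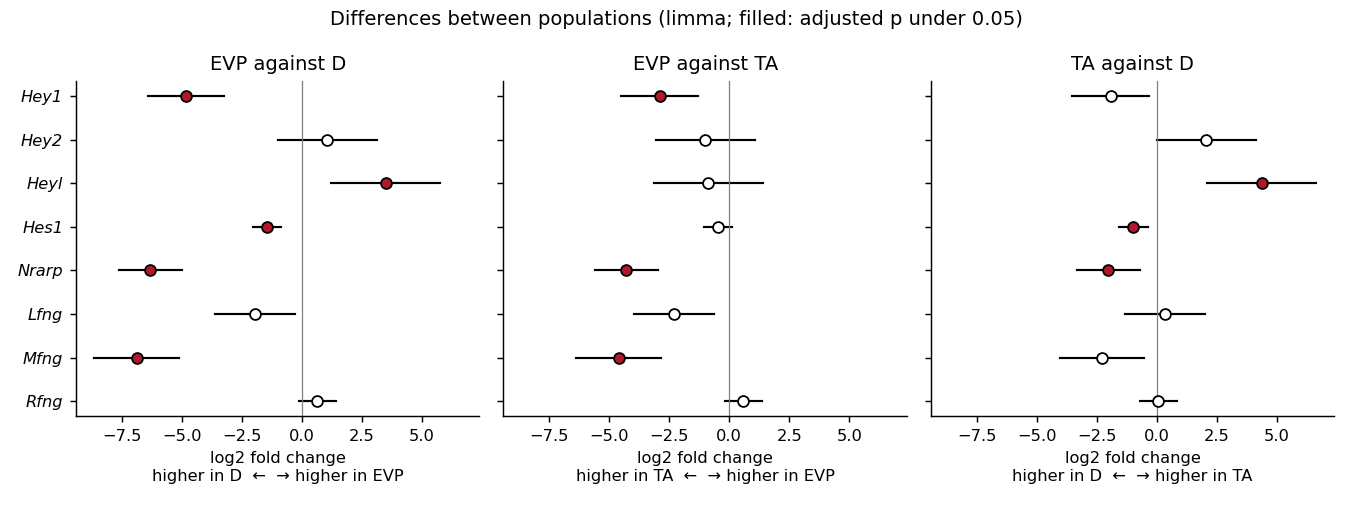
Points are log2 fold changes from limma for the 8 genes in the 3 comparisons, with lines for 95% intervals, and filled points have an adjusted p under 0.05. Positive values are higher in the population named first. *Nrarp* and *Mfng* lie farthest to the left for EVP over D, at -6.32 and -6.89, and *Heyl* farthest to the right for TA over D, at 4.37.

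The remaining genes of the pathway were taken from a list of 54, of which 48 had enough reads to be tested (*Dll3*, *Hes2*, *Hes3*, *Hes5*, *Hes7* and *Helt* did not). Between EVP and D, 18 of the 48 were called, 8 higher in EVP and 10 higher in D, beside 19.0% of all genes (11.6% and 7.46%). Between EVP and TA 6 were called, 1 higher in EVP and 5 higher in TA, beside 3.50% (1.56% and 1.94%). Between TA and D 16 were called, 9 higher in TA and 7 higher in D, beside 12.5% (8.21% and 4.31%). The median log2 fold change over the 48 was -0.12, 0.01 and -0.19. All 4 receptors were called between EVP and D. *Notch4*, an endothelial receptor, was 56.4-fold higher in D (56.7 ± 31.3 in EVP against 3196 ± 1059, limma adjusted p = 2.4e-06), and *Notch1* 7.45-fold higher in D (134 ± 50.1 against 996 ± 322, limma adjusted p = 2.5e-05). *Notch2* was 17.5-fold higher in EVP (2175 ± 684 against 124 ± 38.9, limma adjusted p = 1.5e-07), and *Notch3*, a receptor of mural cells, 7.05-fold higher in EVP (206 ± 193 against 29.3 ± 18.0, limma adjusted p = 0.024), with overlapping libraries. The receptors therefore fell into a pair higher in D and a pair higher in EVP. Between TA and D the same 4 were called, *Notch2* and *Notch3* higher in TA and *Notch1* and *Notch4* higher in D, and between EVP and TA *Notch1* and *Notch4* were higher in TA. Leaving out 1 library ended the *Notch3* call between EVP and D (any of EVP replicates 4 and 5 and D replicates 2 and 3), the *Notch1* call between TA and D (any of TA replicates 3 and 5 and D replicate 4), the *Notch4* call between EVP and TA (EVP replicate 2) and the *Notch1* call between EVP and TA (any of EVP replicates 1 to 4, TA replicates 1, 2 and 4 and D replicate 5).

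Of the ligands, 3 were called between EVP and D, all higher in D. *Dll4*, the main ligand of sprouting vessels, was 106-fold higher there (76.6 ± 93.1 against 8091 ± 2984, limma adjusted p = 3.8e-06), *Dll1* 27.1-fold and *Jag2* 20.8-fold. The same 3 were higher in TA than in EVP, by 25.6-fold for *Dll4*, 7.53-fold for *Dll1* and 9.04-fold for *Jag2*, and from TA to D only *Dll1* was called (limma adjusted p = 0.016). *Jag1* held 1606 ± 580 in EVP, 1523 ± 563 in TA and 2150 ± 274 in D and was called in none of the 3 comparisons (log2 fold change EVP over D -0.49, limma adjusted p = 0.248). *Rbpj*, through which the nuclear signal runs, was 4.07-fold higher in EVP than in D (779 ± 160 against 192 ± 31.8, limma adjusted p = 1.6e-04), opposite to *Nrarp*, *Hey1* and *Hes1*. Within the groups of other functions, the largest changes past the threshold between EVP and D were those of *Gxylt2*, an enzyme that adds xylose to O-glucose on the receptor (61.6-fold higher in EVP), *Eogt*, which adds O-linked GlcNAc (4.34-fold higher in D), *Dtx4*, a Deltex ubiquitin ligase (25.4-fold higher in EVP), *Numbl*, a relative of the Notch inhibitor *Numb* (13.4-fold higher in EVP), *Adam10*, the protease that first cleaves the bound receptor (3.31-fold higher in D), *Ncstn*, a subunit of gamma-secretase (1.42-fold higher in D, a call lost without any 1 of EVP replicates 1, 2 and 5 and D replicates 3 to 5), the coactivator *Maml3* (2.46-fold higher in D) and the repressor *Bhlhe41* (2.78-fold higher in EVP). Between TA and D, *Dlk2*, *Aph1c* (a gamma-secretase subunit), *Gxylt2*, *Dtx4*, *Dtx3* and *Bhlhe41* were higher in TA by 8.06, 3.66, 16.5, 11.4, 2.06 and 3.45-fold, and *Adam10* and *Eogt* higher in D by 2.18 and 2.11-fold. The call of *Eogt* was lost without D replicate 4, and that of *Dtx3* without any 1 of 11 libraries (all but EVP replicates 1 and 5, TA replicate 1 and D replicate 3). *Numbl* was also 4.36-fold higher in EVP than in TA.

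**Figure D4:**
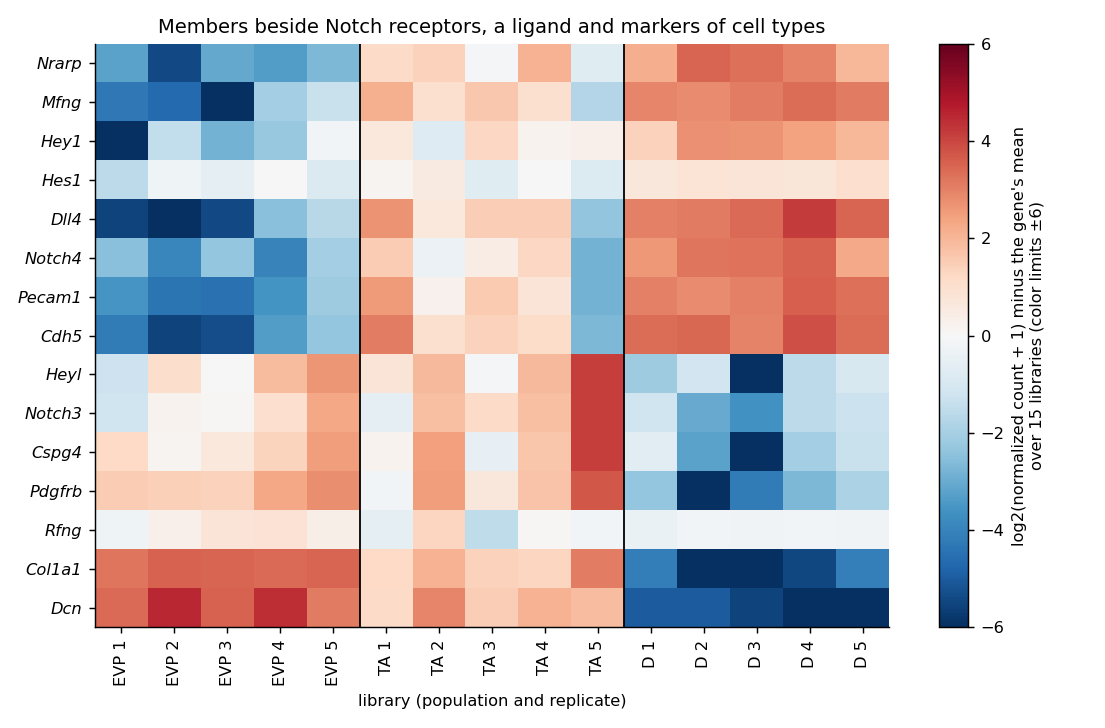
Colors give log2(normalized count + 1) of each gene minus its mean over the 15 libraries, with 1 column per library. *Nrarp*, *Mfng*, *Hey1* and *Hes1* stand beside *Dll4*, *Notch4* and the endothelial markers *Pecam1* and *Cdh5*, *Heyl* beside *Notch3* and the mural markers *Cspg4* and *Pdgfrb*, and *Rfng* above the fibroblast markers *Col1a1* and *Dcn*. TA replicate 5 is blue for the endothelial markers and *Mfng* and dark red for *Heyl* and the mural markers.

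Endothelial markers moved with the genes that were higher in D. Of the 10, 9 were higher in D than in EVP, 8 higher in TA than in EVP and 7 higher in D than in TA, and none was called the other way. All 8 fibroblast markers were higher in EVP than in D and in TA than in D, and 5 were higher in EVP than in TA. In single libraries, *Pecam1* was lowest among TA libraries in replicate 5 (372) and highest in replicate 1 (15414), and both extremes fell in the same libraries for *Mfng* and for *Dll4* (136 and 4623). *Nrarp* was lowest in TA replicate 5 but highest in replicate 4, and *Hey1* had neither extreme in replicate 1 or 5. Markers of other cells differed too: 6 of 6 melanoma markers, 4 of 4 keratinocyte markers and 4 of 7 leukocyte markers were higher in TA than in D. Between EVP and TA, 3 of 6 melanoma, 3 of 7 leukocyte and 2 of 10 mural markers were higher in TA, and none of these was higher in EVP. Between EVP and D, 1 of 6 melanoma and 2 of 4 keratinocyte markers were higher in EVP, and none in D. The 6 melanoma markers summed to 29702 to 67272 normalized counts in EVP, 69248 to 175671 in TA and 18157 to 47767 in D. For the 7 leukocyte markers the sums were 1270 to 7612, 3485 to 24147 and 1502 to 2730. RNA of both kinds was thus read in every library, although the sort was meant to leave out tumor cells and leukocytes. Of 8 genes of dissociation and the immediate early response, 5 were higher in EVP than in D and 4 higher in TA than in D, and their sum was 63819 to 198005 normalized counts in EVP, 43566 to 98227 in TA and 37006 to 41925 in D. Of 6 targets of BMP signaling, 3 were higher in D than in EVP and 4 higher in D than in TA, with 1 the other way in each. The part of these cells and of handling in the results for the 8 genes was not tested.

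Genes whose profile over the 15 libraries was most like that of each member were ranked by the root mean square difference of standardized log2 values, where 0 is an identical profile, among the 11302 genes that averaged 100 or more normalized counts. The measure is a description, since the libraries share population, depth and background, and its median over all candidates was 1.346 to 1.385 for the 8 genes. *Mfng* had the closest neighbors, *Podxl* (0.148), *Pdgfb* (0.154) and *Flt1* (0.173), which encode a sialomucin of the endothelial surface, a growth factor secreted by endothelium and VEGFR1. *Nrarp* was nearest to *Aatk* (0.219), *Foxd2os* (0.257) and *Gpr4* (0.274), and *Hey1* to *Chst15* (0.222), *Fes* (0.295) and *Hrct1* (0.298). For *Heyl* these were *Mpeg1* (0.347), *Arhgef17* (0.367) and *Cspg4* (0.387). *Hes1* was nearest to *Sh3bp5* (0.346), *Chmp2a* (0.355) and *Asap2* (0.358). *Rfng* stood next to *Fam220a* (0.384) and *Pigv* (0.433), *Hey2* next to *Mb21d1* (0.413), *Eya1* (0.489) and *Tmtc4* (0.513), and *Lfng* next to *Asna1* (0.435), *Irf8* (0.475) and *Smt3h2-ps* (0.501). The lists depend on the libraries: without replicate 1 of every population, 2 of the 3 nearest genes were kept for *Heyl*, 1 for *Hey2*, *Hes1*, *Nrarp*, *Mfng* and *Rfng*, and 0 for *Hey1* and *Lfng*.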

How the data were processed

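The deposited table holds normalized counts of 53465 genes in 15 libraries. Per the labels and the study's methods, the authors used a version of Smart-Seq2 that they had modified, aligned with STAR 2.5.3a (GRCm38), counted reads on genes by HTSeq-count and divided the counts by size factors of DESeq2 1.10.1, so the deposited unit is a signal value. The tables of the authors' own DESeq2 comparisons (means, fold changes, p-values) were not used. In every library 100% of values were whole multiples of the smallest value above 0 (tolerance 0.01 read), which recovered the reads. The precision of low values is given by the floor of 3 reads.

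The 3 populations were fitted with limma 3.58.1 (R 4.3.3; 1 coefficient per population, trend, two-sided) on log2(normalized count + 1) for 25549 genes averaging 5 or more normalized counts, with Benjamini-Hochberg adjustment over all of them and a threshold of 0.05. Fold changes from the fit are on that scale, where the pseudocount shrinks differences of low values; folds in the text divide 1 mean of normalized counts by another, and ± marks the SD. Alternatives were pseudocounts of 0.5 and 8, minimum means of none and 20, equal totals, quantile normalization, array weights, fits of 2 populations, a replicate block, edgeR 4.0.16 and DESeq2 1.42.0 on recovered reads, subtraction of the mean olfactory receptor level per kb, each library left out, and replicate 1 left out of every population. The limma, edgeR and DESeq2 fits were tested on simulated counts of independent libraries that shared 1 dispersion. That simulation held no background reads, replicate structure or mixture of cells, so it does not cover these features of the data. Gene positions and lengths of exon were taken from a GRCm38 annotation, and promoters from RefSeq.

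All 8 genes were named. Of the pathway list, the receptors, ligands, *Rbpj* and up to 2 genes per group with the largest change past the threshold were named, and for each of the 8 genes the 3 of most like profile, of which 1 is not reported here. The members and lists were chosen with earlier results of these data known.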

Additional observations from a re-analysis of the deposited data

Results flagged for a closer look

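In 24 groups of 5 libraries (8 genes in 3 populations, log2 scale), 3 held a library whose gap to its nearest neighbor exceeded Dixon's critical share of the range, 0.71. Chance gives about 5% of groups. *Heyl* in D replicate 3 was at 0 normalized counts (gap 0.81 of the range), and the other D libraries held 32.9 to 76.8. *Nrarp* in EVP replicate 2 was at 0 (0.764), where 3 reads would be 3.92 normalized counts and the other EVP libraries held 1 to 8 reads. *Rfng* in D replicate 1 was at 390 (0.727), below the 439 to 458 of the others.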

How the results depend on the processing

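Of 672 refits of the log2 fold changes of the 8 genes under 28 alternatives, 608 kept their direction and side of the threshold, 47 lost the call, 13 gained one and 4 reversed. The calls of *Nrarp*, *Mfng*, *Hey1* and *Hes1* between EVP and D and of *Nrarp* between EVP and TA held in all 28, and that of *Mfng* between EVP and TA in all but array weights. Reversals were of differences not called: after quantile normalization *Hey2* for EVP over D (-0.42), *Lfng* for TA over D (-0.47) and *Rfng* for TA over D (-0.020), and *Rfng* for TA over D without TA replicate 2 (-0.30, in a range of -0.30 to 0.40 with 1 library left out). Quantile normalization also moved the median over all genes from 0.46 to -0.05 for EVP over D and from 0.24 to -0.10 for TA over D. The number of the 8 genes called between TA and D, 3, depended most on the setting: it was 1 with no minimum mean, 1 after quantile normalization, 1 with edgeR, 5 with array weights, 5 with only these populations fitted and 0 after background subtraction (limma, with 3 genes at an unadjusted p under 0.05), and 4 with DESeq2. With 1 library left out it ranged from 1 to 4, with 1 without any of TA replicates 3 and 5 and D replicates 2, 3 and 4. Between EVP and TA it was 1 with array weights, and 2 to 3 with 1 library left out. Among the other pathway genes, calls between EVP and TA were 2 with array weights and 3 without replicate 1 of every population, beside 6, and calls between TA and D were 25 with array weights, 9 after background subtraction and 10 after quantile normalization, beside 16. The causes were not tested. Over all genes, calls reached 7609 with array weights between EVP and D (4859 as reported), 1900 with DESeq2 between EVP and TA (893), with 428 without EVP replicate 2, 471 without EVP replicate 3, 568 without TA replicate 3, 522 without replicate 1 of every population and 565 after background subtraction, and 5054 with array weights, 2117 after quantile normalization and 1798 after background subtraction between TA and D (3199).

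The replicate numbers were not taken as pairs, because neither the labels nor the study say that same-numbered libraries share an animal. Same-numbered libraries nevertheless deviated together in most pairs, with correlations from -0.14 to 0.69, over 0.1 in 11 of 15 pairs. Of the 15 libraries, 11 correlated best with their own number in both other populations. The main fit leaves this shared deviation out of account. With the replicate block, the 8 genes gave 5 calls for EVP and D, 3 for EVP against TA and 2 for TA against D, where *Nrarp* was lost (limma adjusted p = 0.054). Few reads lie behind some values: at most 8 in any EVP library for *Nrarp*, and 3 or fewer in 2 libraries for *Hey2* and *Nrarp* and in 1 for *Hey1*, *Heyl*, *Lfng* and *Mfng*.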
